A study of Mus musculus with 12 samples.

Results

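The 10 carrier genes described here move glucose, monocarboxylates, amino acids, taurine and water-soluble vitamins across the brain endothelium: Slc2a1, Slc16a1, Slc7a5, Slc3a2, Slc7a1, Slc38a3, Slc38a5, Slc6a6, Slc19a3 and Slc5a6. They were chosen by name for what they carry, with earlier results of these data known, and they are 10 of the 21638 genes in the deposited count table. All 10 passed the filter on low counts (a mean count of at least 10), as did 12577 genes in all. RNA came from adult mouse brain cortical endothelial cells sorted as CD31+, CD41- and CD45-, which keeps endothelium and removes platelets and leukocytes, and SMART-Seq v4 PLUS, which amplifies whole cDNA from small cell numbers, gave the libraries. The 12 libraries formed 4 groups of 3: wild type (WT), Hdac2 ECKO (Hdac2lox/lox with Cdh5CreERT2, an endothelial knockout of a histone deacetylase gene), Ezh2 ECKO (Ezh2lox/lox with Cdh5CreERT2, an endothelial knockout of a Polycomb methyltransferase gene) and beta-catenin GOF (Ctnnb1lox/lox with Cdh5CreERT2, in which beta-catenin is constitutively active). Cdh5CreERT2 is a Cre recombinase that acts in endothelium once tamoxifen is given. The mutants received 5 doses of tamoxifen at 75 mg/kg and brains were taken 2 months later. Whether WT mice carried Cre or received tamoxifen, the age of the mice, and whether a library held cells of 1 animal or of several were not given in the sources used here, so p-values measure the spread between libraries only.

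Brain capillaries form a barrier in which tight junctions close the path between cells, so polar nutrients enter the brain through carriers in the endothelial membrane. SLC2A1 (GLUT1) carries glucose and SLC16A1 (MCT1) carries lactate and ketone bodies together with a proton. SLC7A5 (LAT1) pairs with the glycoprotein SLC3A2 (4F2hc, CD98) to exchange large neutral amino acids, and SLC7A1 (CAT1) carries the cationic amino acids arginine and lysine. SLC38A3 (SNAT3) and SLC38A5 (SNAT5) are the system N carriers of glutamine, SLC6A6 (TauT) takes up taurine with sodium, SLC19A3 carries thiamine, and SLC5A6 (SMVT) carries biotin and pantothenate. Wnt and beta-catenin signalling is known to induce barrier genes, Slc2a1 among them, during brain vessel development.

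Library totals ran from 24781070 to 36109975 counts. No targeted gene separated its own mutant from WT. Hdac2 was at 129 ± 30.1 CPM (counts scaled to a common library total with TMM factors, mean ± SD, n = 3) in WT and 96.5 ± 15.1 in Hdac2 ECKO (log2 fold change, log2FC, -0.42, edgeR adjusted p = 0.225). It was at 96.1 ± 10.1 CPM in beta-catenin GOF. Ezh2 was at 6.75 ± 3.52 CPM in WT and at 8.92 ± 3.36 in libraries labelled Ezh2 ECKO (log2FC 0.40, edgeR adjusted p = 0.615). Its counts were low and overlapped, at 85 to 256 in WT and 132 to 326 in libraries labelled Ezh2 ECKO. Ctnnb1 was at 654 ± 138 CPM in WT and 583 ± 109 in beta-catenin GOF. In Hdac2 ECKO it was at 1157 ± 271 CPM, wholly above WT, as were 19.5% of all genes (log2FC 0.82, edgeR adjusted p = 0.0711). For all of these targeted genes, gene-level counts do not show which exons a transcript lacks, so whether the labelled deletions took place was not tested. The names of all groups follow the sample titles. The 13 endothelial markers were detected in every group, with a summed level of 24282 to 34826 CPM in WT and 17820 to 20864 in Hdac2 ECKO. Summed levels of other cell types also moved with the groups: 12 pericyte and smooth muscle genes at 71.1 to 132 CPM in WT, 146 to 359 in Hdac2 ECKO and 130.4 to 442 in beta-catenin GOF, 8 astrocyte genes at 24.3 to 36.2 CPM in WT and 50.8 to 76.4 in Hdac2 ECKO, and 5 erythrocyte genes at 36116 to 61351 CPM in WT against 400.5 to 21666 in Hdac2 ECKO. In libraries labelled Ezh2 ECKO the erythrocyte sum was 2518 to 6661 CPM, the astrocyte sum 44.2 to 79.8, and the sum of 5 choroid plexus genes 24.1 to 182 against 1.07 to 2.22 in WT, all without overlap with WT. S100b was at 0 there among the astrocyte genes, and the pericyte and smooth muscle sum was 64.3 to 86.3 CPM. In Hdac2 ECKO the choroid plexus sum was 2.73 to 111 CPM, also wholly above WT. Only 2 of the 5 choroid plexus genes were tested. Of these, 1 had a positive fold change in Hdac2 ECKO and 1 in libraries labelled Ezh2 ECKO. The sum of 8 neuron genes was 63.4 to 112 CPM in Hdac2 ECKO against 160 to 301 in WT. That of 9 microglia and macrophage genes was 40.5 to 61.6 against 71.0 to 94.4. Of the neuron genes only 2 were tested there, 1 with a positive fold change, and their median log2FC was -0.03. Of the microglia and macrophage genes 4 were tested, 1 with a positive fold change (median log2FC -0.35), and Tmem119 was at 0 in Hdac2 ECKO. In beta-catenin GOF the astrocyte sum, 37.9 to 54.1 CPM, lay wholly above WT, and the erythrocyte sum, 509.5 to 35349, wholly below. Of the 4 astrocyte genes tested, 2 had a positive fold change in beta-catenin GOF (median log2FC 0.06), and Aqp4 was at 0 in that group. Across all tested genes the log2 fold change also followed gene length, with a Spearman rho of 0.44 in Hdac2 ECKO, 0.29 in libraries labelled Ezh2 ECKO and 0.14 with beta-catenin GOF. The part of cell mixture and of gene length in the differences below was not tested apart from the length-corrected values given, and in bulk samples fewer cells of a type and less RNA per cell cannot be told apart.

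In WT endothelium all 10 carriers were expressed, and Slc2a1 stood first. Levels between genes are compared here as TPM, which divides counts by gene length before scaling all libraries to 1 total. Slc2a1 was at 373, 302 and 246 TPM in the 3 WT libraries (mean 307 ± 63.3), above 96.9% of the 16483 genes detected in WT. The taurine carrier Slc6a6 came next at 234 ± 27.7 TPM, followed by Slc38a5 at 207 ± 115, Slc16a1 at 204 ± 41.1 and Slc3a2 at 199.9 ± 106. The thiamine carrier Slc19a3 was at 107 ± 32.6 TPM, Slc7a5 at 62.2 ± 12.3, Slc38a3 at 36.4 ± 17.9 and Slc7a1 at 32.4 ± 8.37. Slc5a6, the biotin and pantothenate carrier, was lowest at 13.0 ± 0.967 TPM and still lay above 72.6% of detected genes. In this order every neighbouring pair overlapped over the 3 libraries except Slc7a1 and Slc5a6, so neighbours in the order are not separated. Further apart, Slc2a1, Slc6a6 and Slc16a1 lay wholly above Slc19a3, Slc19a3 lay wholly above Slc38a3 and Slc7a1, and Slc5a6 lay wholly below all the others. In Hdac2 ECKO the order of means began with Slc16a1 at 516 TPM, Slc2a1 at 500.04 and Slc6a6 at 443. Their libraries overlapped, at 458 to 607, 426 to 594 and 375 to 477 TPM. Slc38a5 stood in place 7 at 126 TPM, close to Slc7a5 at 128 in place 6. In beta-catenin GOF the order began with Slc2a1 at 411 TPM, Slc16a1 at 309 and Slc38a5 at 274, whose libraries overlapped too.

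**Figure D1:**
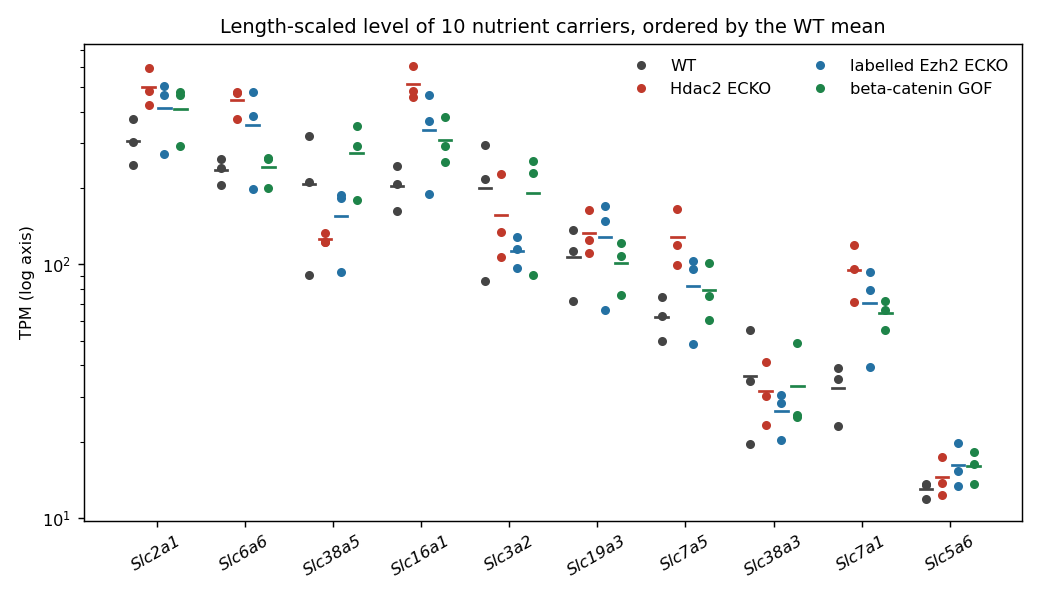
Length-scaled level (TPM, log axis) of the 10 carrier genes in each of the 12 libraries, ordered by the WT mean and coloured by group. Slc2a1 leads in WT with a mean of 307 TPM and Slc5a6 is lowest at 13.0 TPM.

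The carriers differed in how evenly the 3 WT libraries expressed them. The coefficient of variation of WT CPM was 8.70% for Slc2a1 and 7.64% for Slc7a5, against a median of 20.7% over the 3211 genes at 50 CPM or more. It was 46.0% for Slc38a5, 44.4% for Slc3a2 and 38.4% for Slc38a3, above 94.1%, 93.0% and 86.5% of those genes. WT replicate 1 was highest and WT replicate 3 lowest for all of these last 3 genes, while Slc7a1, at 33.0%, had its lowest value in WT replicate 1.

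Against WT, 2 of the 10 carriers passed the threshold in Hdac2 ECKO, the cationic amino acid carrier Slc7a1 and the monocarboxylate carrier Slc16a1, and both rose. None passed in libraries labelled Ezh2 ECKO or in beta-catenin GOF. The background rates were 9.2% of all tested genes past the threshold in Hdac2 ECKO (3.82% higher than WT), 1.03% in libraries labelled Ezh2 ECKO and 0% with beta-catenin GOF. Each gene was tested by quasi-likelihood F test in edgeR, with Benjamini-Hochberg adjustment over all 12577 genes and a threshold of 0.05. At an unadjusted p under 0.05, 4 carriers passed in Hdac2 ECKO, where 33.1% of all genes did, 2 in libraries labelled Ezh2 ECKO, where 24.7% did, and 1 in beta-catenin GOF, where 6.06% did. DESeq2 called 3, 1 and 0 carriers in these comparisons, beside 24.6%, 10.4% and 0.303% of the genes it gave an adjusted p. Limma with sample quality weights called 7, 4 and 0, beside 42.7%, 29.8% and 0.207% of all genes.

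By direction, 5 of 10 carriers had a positive log2 fold change in Hdac2 ECKO, 7 in libraries labelled Ezh2 ECKO and 6 with beta-catenin GOF. Their median log2 fold changes were 0.13, 0.26 and 0.24, beside 0.10, 0.05 and 0.01 over all tested genes. In Hdac2 ECKO the 3 libraries lay wholly above WT for 5 carriers (Slc2a1, Slc16a1, Slc7a5, Slc7a1 and Slc6a6) and wholly below for 0, where 19.5% of all genes lay above and 18.2% below. In libraries labelled Ezh2 ECKO only Slc7a1 lay wholly above WT (11.1% of all genes did). In beta-catenin GOF, Slc7a5, Slc7a1 and Slc5a6 did (6.83% of all genes). The 3 comparisons share the WT libraries, so a carrier that stands high in all of them, as Slc7a1 does, rests on the same 3 WT values each time.

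**Figure D2:**
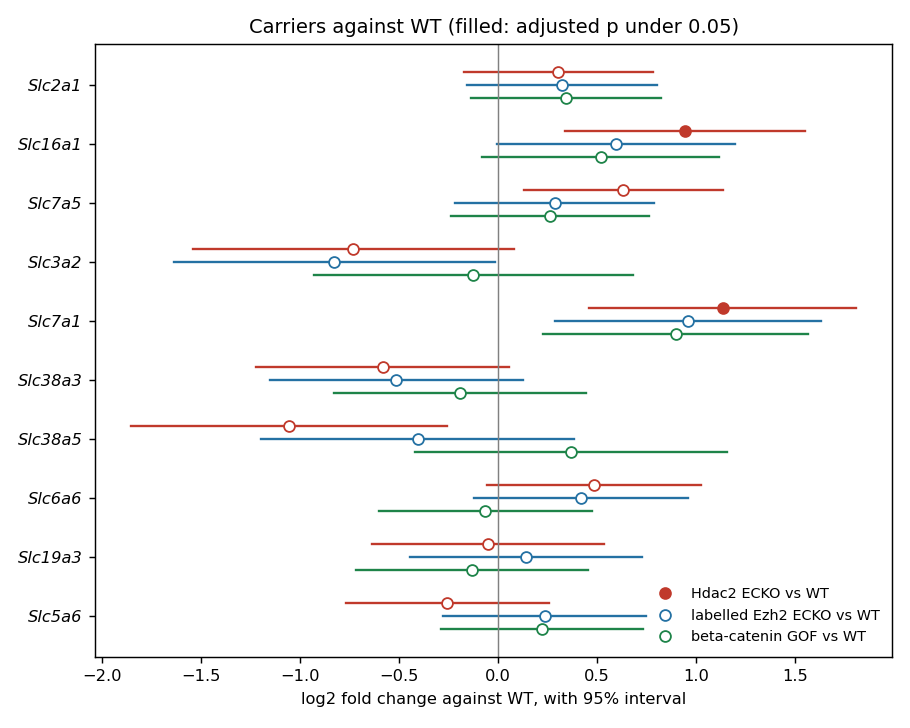
Log2 fold change of the 10 carrier genes against WT in Hdac2 ECKO, libraries labelled Ezh2 ECKO and those of beta-catenin GOF, with 95% intervals as bars and filled points where the adjusted p was under 0.05. The 2 filled points are Slc7a1 (1.13) and Slc16a1 (0.94) in Hdac2 ECKO.

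Glucose is the brain's main fuel, and Slc2a1 (ENSMUSG00000028645.11, chr4:119108711-119137983, plus strand, GRCm38) showed no difference that passed. It was at 588, 521 and 498 CPM in WT and at 621, 728 and 637 CPM in Hdac2 ECKO, so the Hdac2 ECKO libraries lay above WT by a small margin. It was at 779, 579 and 654 CPM in libraries labelled Ezh2 ECKO and at 573, 689.6 and 775 CPM in beta-catenin GOF, and in both groups at least 1 library lay within the WT range. The log2 fold change was 0.31 (SE 0.23, 95% interval -0.17 to 0.78, adjusted p = 0.355) in Hdac2 ECKO, 0.32 (adjusted p = 0.386) in libraries labelled Ezh2 ECKO and 0.34 (adjusted p = 0.900) in beta-catenin GOF. Once the length trend was removed these values were 0.52 (adjusted p = 0.117), 0.52 (adjusted p = 0.134) and 0.42 (adjusted p = 0.734).

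Slc16a1 (ENSMUSG00000032902.1, chr3:104638668-104658462, plus strand), which carries lactate and ketone bodies, rose in Hdac2 ECKO. It was at 485, 351 and 530 CPM in WT and at 1118, 745 and 766 CPM in Hdac2 ECKO, and the 2 groups did not overlap. The fold was 1.92 (95% interval 1.27 to 2.92), or a log2FC of 0.94 (SE 0.28, edgeR adjusted p = 0.0497). The value stood just under the threshold, and it no longer passed without WT replicate 1, WT replicate 2, Hdac2 ECKO replicate 1 or Hdac2 ECKO replicate 3, where the log2 fold changes of all 6 such fits ran from 0.72 to 1.07. With the trend on gene length removed it was 0.95 (adjusted p = 0.0553), and it also missed the threshold by median-ratio scaling and in a fit of only the 2 groups compared. In libraries labelled Ezh2 ECKO it was at 907, 508 and 649 CPM, of which replicate 2 lay within the WT range (log2FC 0.59, adjusted p = 0.206). In beta-catenin GOF it was at 725, 713 and 519.7 CPM, again with 1 library within the WT range (log2FC 0.52, adjusted p = 0.884).

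Slc7a1 (ENSMUSG00000041313.14, chr5:148327410-148399904, minus strand), the arginine and lysine carrier, had the largest log2 fold change among the 10 in each comparison with WT and rose in Hdac2 ECKO. It was at 119, 221 and 235 CPM in WT. It was at 458, 285 and 519 CPM in Hdac2 ECKO, at 475, 275 and 365 CPM in libraries labelled Ezh2 ECKO and at 425, 351 and 294 CPM with beta-catenin GOF, so all 9 mutant libraries lay above all 3 WT libraries. The fold in Hdac2 ECKO was 2.20 (95% interval 1.38 to 3.50), a log2FC of 1.13 (SE 0.32, edgeR adjusted p = 0.0417). It was 0.96 on the log2 scale (95% interval 0.29 to 1.63, adjusted p = 0.0963) in libraries labelled Ezh2 ECKO and 0.90 (95% interval 0.23 to 1.57, adjusted p = 0.706) in beta-catenin GOF. At 11530 bases Slc7a1 was the longest of the 10 genes, and with the length trend removed its log2 fold change in Hdac2 ECKO was 0.52 (adjusted p = 0.194) and in libraries labelled Ezh2 ECKO 0.51 (adjusted p = 0.218). The call was also lost without WT replicate 1, WT replicate 2, Hdac2 ECKO replicate 1 or Hdac2 ECKO replicate 3, with values from 0.88 to 1.31 over the 6 such fits.

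The promoters of the pair of carriers that rose are shown because these are the genes the comparison with Hdac2 ECKO turns on. Each runs from 250 bases before to 50 bases after a start site annotated by RefSeq, on GRCm38.p6 and in the direction of the gene. Capitals mark matches on either strand to the motifs searched. These were ACGTG (the core of CACGTG E-boxes and of hypoxia response elements), GGGCGG (the GC box), CTTTGAT (a TCF and LEF core) and TGATGNAA (the amino acid response element).
Slc16a1, chr3:104638414-104638713, plus strand: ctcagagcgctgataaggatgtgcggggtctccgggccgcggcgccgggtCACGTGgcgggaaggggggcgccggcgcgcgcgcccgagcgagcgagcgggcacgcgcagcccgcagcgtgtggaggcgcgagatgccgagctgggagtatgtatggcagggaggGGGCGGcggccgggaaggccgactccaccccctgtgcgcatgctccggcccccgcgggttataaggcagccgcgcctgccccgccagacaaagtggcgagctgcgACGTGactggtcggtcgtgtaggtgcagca
Slc7a1, chr5:148399855-148400154, minus strand: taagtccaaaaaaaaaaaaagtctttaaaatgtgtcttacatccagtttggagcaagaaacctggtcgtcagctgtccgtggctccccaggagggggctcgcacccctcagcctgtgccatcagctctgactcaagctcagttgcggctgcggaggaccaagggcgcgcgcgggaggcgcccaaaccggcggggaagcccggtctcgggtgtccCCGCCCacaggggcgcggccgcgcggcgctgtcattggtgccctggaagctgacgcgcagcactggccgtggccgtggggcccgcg
Slc7a1, second start, chr5:148392766-148393065, minus strand: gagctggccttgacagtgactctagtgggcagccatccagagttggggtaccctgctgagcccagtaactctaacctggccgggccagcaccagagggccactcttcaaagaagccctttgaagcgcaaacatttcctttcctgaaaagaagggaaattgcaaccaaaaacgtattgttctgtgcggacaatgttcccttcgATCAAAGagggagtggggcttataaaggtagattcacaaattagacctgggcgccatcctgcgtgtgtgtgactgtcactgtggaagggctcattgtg
The Slc16a1 window held 42 CpG dinucleotides and the first Slc7a1 window 27, beside a median of 7 over the 32851 promoters in the RefSeq table, while the second Slc7a1 window held 7. Slc16a1 had a CACGTG, which contains ACGTG on both strands, 200 bases before its start, a further ACGTG just after the start and 1 GGGCGG. The first Slc7a1 window had 1 GGGCGG, read on the opposite strand, and the second had 1 CTTTGAT. Of the 10 carriers, 7 had a promoter in the table, with 9 windows between them, as Slc7a1 and Slc5a6 had 2 each. GGGCGG was in 6 of these carriers and in 35.7% of all promoters, and ACGTG in 5 and in 19.6%. CTTTGAT was in 2 (Slc7a1, in its second window, and Slc19a3) and in 3.73%, and TGATGNAA in 0 and in 3.97%. A carrier was counted if any of its windows matched, while the percentages are per window, so the 2 differ in unit. A match describes the letters only.

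The heavy and light chains of the large neutral amino acid carrier had fold changes of opposite sign in Hdac2 ECKO, neither past the threshold. The light chain Slc7a5 (ENSMUSG00000040010.10, chr8:121881150-121907694, minus strand) was at 124, 114 and 107 CPM in WT and at 153, 214 and 167 CPM in Hdac2 ECKO, with no overlap (log2FC 0.63, SE 0.24, 95% interval 0.13 to 1.14, adjusted p = 0.0847). With the length trend removed it was 0.80 and passed (adjusted p = 0.0442), and it passed in 5 of the 17 alternatives run. The heavy chain Slc3a2 (ENSMUSG00000010095.13, chr19:8706882-8723369, minus strand) was at 471, 378 and 174 CPM in WT and at 157, 281 and 179 CPM in Hdac2 ECKO, and WT replicate 3 lay among the Hdac2 ECKO values (log2FC -0.73, SE 0.38, 95% interval -1.54 to 0.08, adjusted p = 0.192).

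In libraries labelled Ezh2 ECKO, Slc7a5 was at 168, 109 and 142 CPM (log2FC 0.29, adjusted p = 0.468) and Slc3a2 at 150.1, 246 and 181 CPM (log2FC -0.83, 95% interval -1.64 to -0.01, adjusted p = 0.195). In beta-catenin GOF, Slc7a5 was at 124.6, 159.9 and 129 CPM, all above the highest WT library, 1 of them barely (log2FC 0.26, adjusted p = 0.929). Slc3a2 was at 178, 343 and 418 CPM there, within the WT range (log2FC -0.12, adjusted p = 0.983). Slc7a5 overlaps Gm20388 on the opposite strand, and whether counting used strand was not given in the sources used here, so its counts may include reads of that gene.

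**Figure D3:**
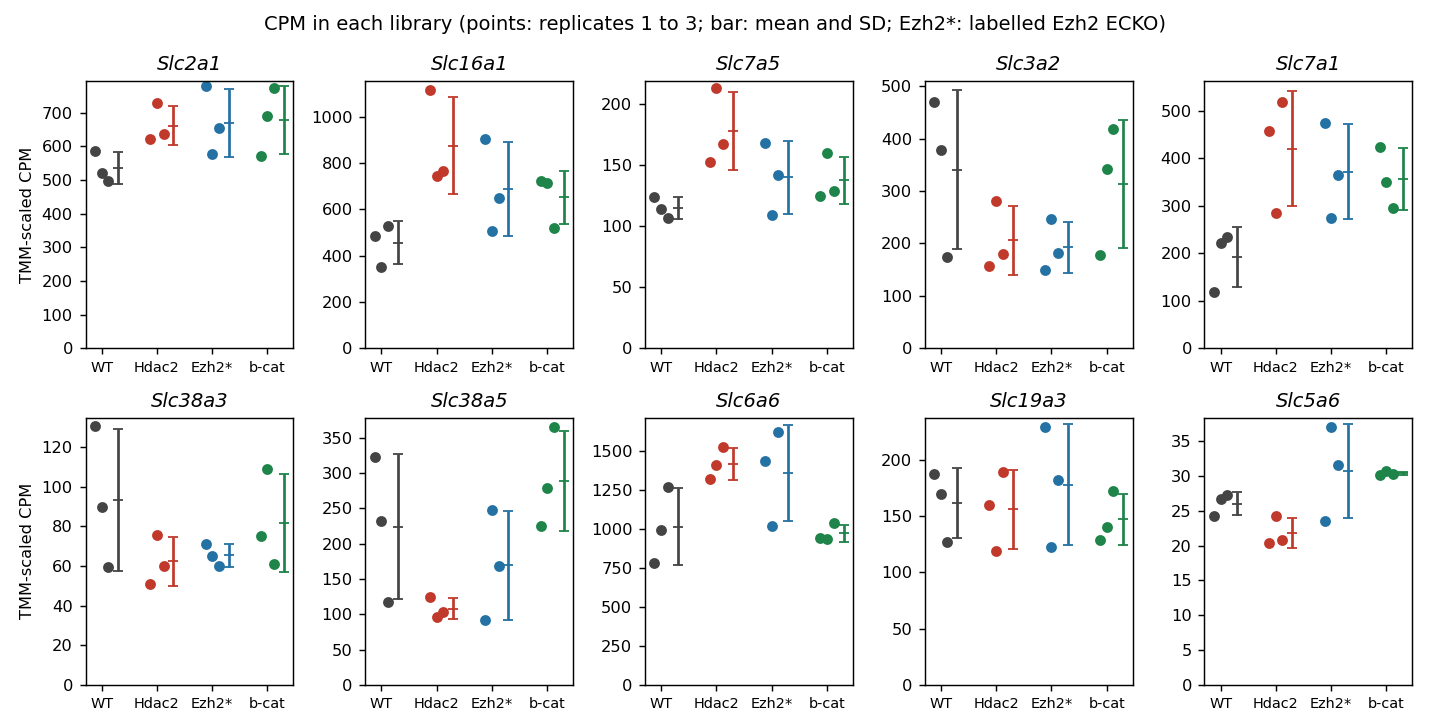
CPM of each carrier gene in the 12 libraries, 1 panel per gene, with points for libraries and a bar for mean and SD of the 3 libraries of a group (Ezh2*: labelled Ezh2 ECKO). All 9 mutant libraries lie above the 3 WT libraries for Slc7a1, and the 3 WT values of Slc3a2 and Slc38a5 are spread over most of the range of the mutants.

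The system N carriers, which move glutamine with sodium, had negative fold changes in Hdac2 ECKO that did not pass. Slc38a5 (ENSMUSG00000031170.14, chrX:8271133-8280179, plus strand) was at 323, 232 and 117.4 CPM in WT and at 124, 96.4 and 104 CPM in Hdac2 ECKO, with WT replicate 3 below Hdac2 ECKO replicate 1. Its log2 fold change was -1.05 (SE 0.37, 95% interval -1.85 to -0.26, adjusted p = 0.0746). It passed in 4 of 17 alternatives (without the filter on low counts, under DESeq2, with sample quality weights and without WT replicate 3, where it was -1.36), and with the length trend removed it was -0.50 (adjusted p = 0.365). At 2241 bases it was the shortest of the 10 genes.

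Slc38a5 was at 92.5, 248 and 168 CPM in libraries labelled Ezh2 ECKO (log2FC -0.40, adjusted p = 0.522) and at 224.3, 279 and 365 CPM with beta-catenin GOF (log2FC 0.37, adjusted p = 0.939), and both groups overlapped WT. Its paralog Slc38a3 (ENSMUSG00000010064.15, chr9:107650634-107669530, minus strand) was at 131, 89.6 and 59.5 CPM in WT and at 51.1, 75.9 and 60.1 CPM in Hdac2 ECKO (log2FC -0.58, SE 0.30, 95% interval -1.22 to 0.06, adjusted p = 0.187). It was at 71.3, 64.8 and 60.0 CPM in libraries labelled Ezh2 ECKO (log2FC -0.51, adjusted p = 0.298) and at 75.1, 109 and 61.0 CPM with beta-catenin GOF (log2FC -0.19, adjusted p = 0.956). All 9 mutant values of Slc38a3 lay below WT replicate 1, and WT replicate 3 was the second lowest of the 12.

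Slc6a6 (ENSMUSG00000030096.8, chr6:91684053-91759066, plus strand) takes up taurine, an osmolyte that is abundant in brain. It was at 780.1, 992 and 1269 CPM in WT and at 1319, 1407 and 1525 CPM in Hdac2 ECKO, where the lowest library was just above the highest WT library (log2FC 0.48, SE 0.25, 95% interval -0.06 to 1.02, adjusted p = 0.195). The value of this gene of 8457 bases was 0.05 once the length trend was removed (adjusted p = 0.910). It was at 1435, 1017 and 1620 CPM in libraries labelled Ezh2 ECKO (log2FC 0.42, adjusted p = 0.315). In beta-catenin GOF it was at 942, 936 and 1034 CPM, all within the WT range (log2FC -0.06, adjusted p = 0.988).

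Neither vitamin carrier passed the threshold in any comparison with WT. The thiamine carrier Slc19a3 (ENSMUSG00000038496.16, chr1:83012523-83038448, minus strand) was at 188, 169.6 and 127 CPM in WT, at 159.5, 119 and 189 CPM in Hdac2 ECKO, at 229.5, 122 and 183 CPM in libraries labelled Ezh2 ECKO and at 129, 140.4 and 172 CPM in beta-catenin GOF. All 3 mutant groups overlapped WT. Its log2 fold changes were -0.05 (95% interval -0.63 to 0.54, adjusted p = 0.921), 0.14 (adjusted p = 0.785) and -0.13 (adjusted p = 0.971). Slc5a6 (ENSMUSG00000006641.12, chr5:31036036-31048924, minus strand), the biotin and pantothenate carrier, had the lowest level per length in each of the 4 groups and the smallest coefficient of variation of the 10 in WT. It was at 24.2, 26.6 and 27.3 CPM in WT, at 20.4, 24.3 and 20.8 CPM in Hdac2 ECKO, at 23.6, 37.1 and 31.6 CPM in libraries labelled Ezh2 ECKO and at 30.2, 30.7 and 30.3 CPM in beta-catenin GOF. The beta-catenin GOF libraries lay above WT without passing the test (log2FC 0.22, adjusted p = 0.940), and the other 2 groups overlapped WT (-0.26, adjusted p = 0.478, and 0.24, adjusted p = 0.566). Slc5a6 overlaps Atraid on the opposite strand, with the same limit on its counts as Slc7a5.

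Some carriers were also set against a partner or a paralog within each library, as ratios of TPM. The ratio of Slc7a5 to its heavy chain Slc3a2 was 0.251, 0.287 and 0.582 in WT and 0.928, 0.725 and 0.887 in Hdac2 ECKO. It was 1.07, 0.423 and 0.747 in libraries labelled Ezh2 ECKO and 0.665, 0.444 and 0.293 with beta-catenin GOF. In Hdac2 ECKO light chain RNA stood close to heavy chain RNA in each library, above every WT ratio. The differences in mean log2 ratio from WT were 1.28 (exact permutation p = 0.1), 1.00 (exact p = 0.2) and 0.35 (exact p = 0.5). The smallest 2-sided p that 3 libraries against 3 allow is 0.1, so no ratio could pass 0.05, and over the 9 ratio tests the smallest adjusted p was 0.257. The gene lengths of the pair, 3708 and 3529 bases, were close.

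MCT1 needs the membrane glycoprotein basigin, encoded by Bsg, to reach the cell surface, and this ratio was added after the values of Bsg were seen. Bsg was at 40107, 32121 and 30238 CPM in WT and at 5563, 17603 and 7314 CPM in Hdac2 ECKO, where it fell (log2FC -1.75, SE 0.48, edgeR adjusted p = 0.0405). With the length trend removed the value was -1.24 (adjusted p = 0.0559). It was at 9860, 31124 and 9237 CPM in libraries labelled Ezh2 ECKO and at 26615, 32758 and 26649 CPM with beta-catenin GOF. The TPM ratio of Slc16a1 to Bsg was 0.00496, 0.00448 and 0.00719 in WT and 0.0823, 0.0174 and 0.0429 in Hdac2 ECKO, so Bsg RNA remained far above Slc16a1 RNA in every library. The ratio was 0.0377, 0.00668 and 0.0288 in libraries labelled Ezh2 ECKO and 0.0112, 0.00892 and 0.00799 with beta-catenin GOF. The log2 differences from WT were 2.86 (exact permutation p = 0.1), 1.83 (exact p = 0.2) and 0.77 (exact p = 0.1). The summed level of 5 erythrocyte genes was also lower in Hdac2 ECKO, at 21666, 400.5 and 972 CPM in replicates 1 to 3, and the replicate with the highest sum had the lowest Bsg. Beta-catenin GOF replicate 2 had a sum of 509.5 CPM with Bsg at 32758, and replicate 2 of those labelled Ezh2 ECKO had 6661 CPM with Bsg at 31124. Replicates 1 and 3 of those labelled Ezh2 ECKO had sums of 2518 and 3494 CPM with Bsg at 9860 and 9237. The WT sums were 36116 to 61351 CPM with Bsg at 30238 to 40107. Whether the erythrocyte sum and Bsg are related was not tested.

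The ratio of Slc38a5 to Slc38a3 was 5.81, 6.09 and 4.64 in WT and 5.72, 2.99 and 4.06 in Hdac2 ECKO. It was 3.05, 8.99 and 6.61 in libraries labelled Ezh2 ECKO and 7.03, 6.01 and 14.1 with beta-catenin GOF. All 3 mutant groups overlapped WT, with log2 differences of -0.42 (exact permutation p = 0.2), 0.05 (exact p = 0.9) and 0.62 (exact p = 0.2). Both system N genes thus varied together over the 3 WT libraries, since their ratio there varied far less than either level.

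**Figure D4:**
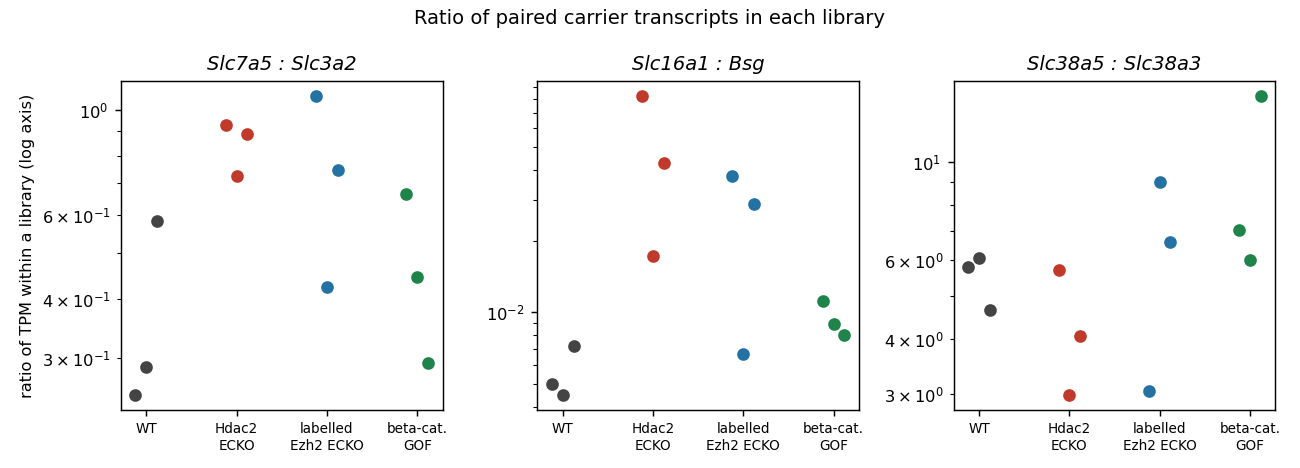
TPM ratio within each library (log axis) of Slc7a5 to Slc3a2, Slc38a5 to Slc38a3 and Slc16a1 to Bsg, by group. The Hdac2 ECKO ratios of Slc7a5 to Slc3a2 (0.725 to 0.928) lie above the WT ratios (0.251 to 0.582), and those of Slc16a1 to Bsg (0.0174 to 0.0823) above the WT ratios (0.00448 to 0.00719).

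Other genes of nutrient transport and use passed at rates near or below those of all genes. Over 8 lists of related genes, 106 were tested, of which 6 passed in Hdac2 ECKO (2 higher and 4 lower), 1 in libraries labelled Ezh2 ECKO (lower) and 0 with beta-catenin GOF. All-gene rates were 9.2%, 1.03% and 0%. At an unadjusted p under 0.05 these counts were 26, 25 and 6, where 33.1%, 24.7% and 6.06% of all genes passed. DESeq2 gave 15, 9 and 0, beside 24.6%, 10.4% and 0.303% of the genes it gave an adjusted p. Limma with sample quality weights gave 28, 24 and 0, beside 42.7%, 29.8% and 0.207% of all genes. With the length trend removed, 2, 0 and 0 passed, where 623, 189 and 0 of all 12577 genes did.

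Among 17 other SLC38, SLC36, SLC1 and SLC6 carriers of amino acids, taurine and creatine, 2 rose in Hdac2 ECKO, where 3.82% of all genes rose. Their median log2 fold change was 0.60. With the length trend removed 1 rose and the median was 0.47. Slc38a11, a member of the glutamine carrier family, went from 1.28 ± 0.654 CPM in WT to 40.4, 7.73 and 8.87 CPM in Hdac2 ECKO (log2FC 3.89, SE 0.72, adjusted p = 0.0323, and 3.92 with the length trend removed). Slc36a1, a proton-coupled amino acid carrier of lysosomes, went from 6.91 ± 2.50 to 21.05 ± 6.76 CPM (log2FC 1.61, SE 0.44, adjusted p = 0.0409, and 1.41 with adjusted p = 0.058 once the length trend was removed). Among the pericyte and smooth muscle markers all 12 had positive fold changes in Hdac2 ECKO and 5 rose, beside 3.82% of all genes. None of the 12 was at 0 in any group, and their part in the values of these carriers was not tested.

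List medians are read beside all-gene medians of 0.10, 0.05 and 0.01. None of 8 other monosaccharide and inositol carriers passed in any comparison, with medians of 0.17, 0.07 and -0.08 in Hdac2 ECKO, libraries labelled Ezh2 ECKO and those of beta-catenin GOF. Of 11 other monocarboxylate carriers and chaperones only Bsg passed, in Hdac2 ECKO, and the medians were 0.31, 0.07 and 0.02. The 9 other SLC7, SLC43 and SLC3 amino acid carriers gave 0 calls and medians of 0.43, -0.78 and 0.04. The 13 other vitamin, choline and carnitine carriers gave 0 calls and medians of 0.34, 0.09 and 0.07, and the 5 nucleoside carriers 0 calls and medians of -0.54, -1.22 and 0.29. The 22 enzymes and kinases that use thiamine, biotin or pantothenate gave 0 calls and medians of 0.33, 0.04 and -0.01, so the known users of what Slc19a3 and Slc5a6 carry did not pass either. After removal of the length trend, the Hdac2 ECKO median of the monosaccharide list turned to -0.15, its median in libraries labelled Ezh2 ECKO turned to -0.07, and the Hdac2 ECKO medians of the monocarboxylate list and of the vitamin users came to 0.0073 and 0.05.

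The amino acid response, in which the factor ATF4 raises amino acid carriers and synthetic enzymes when amino acids run short, was the list with the most falls. Of its 21 tested genes 3 fell in Hdac2 ECKO, where 5.38% of all genes fell, and 0 rose. Its median log2FC was -0.31, which turned to 0.11 with the length trend removed. The transcription factor Atf4 went from 191 ± 65.2 CPM in WT to 83.5 ± 3.93 (log2FC -1.19, SE 0.35, adjusted p = 0.0488), Cebpb from 18.3 ± 8.59 to 5.80 ± 3.70 (-1.66, SE 0.49, adjusted p = 0.0472) and Atf3 from 486 ± 306 to 91.2 ± 29.6 (-2.41, SE 0.42, adjusted p = 0.0323). All 3 encode transcription factors, and Atf3 is also known as an immediate response gene of cell stress. Atf3 fell in libraries labelled Ezh2 ECKO as well, to 138 ± 53.3 CPM (-1.81, SE 0.41, adjusted p = 0.0478), where it was the only gene of the list to pass. With the length trend removed Atf3 still passed in Hdac2 ECKO (-1.83, adjusted p = 0.0318), while Atf4 (-0.68, adjusted p = 0.147), Cebpb (-1.02, adjusted p = 0.222) and Atf3 in libraries labelled Ezh2 ECKO (-1.51, adjusted p = 0.055) did not.

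Set directly against each other, the mutants did not differ in any of the 10 carriers past the threshold. Background rates were 0.0239% of genes past it for Hdac2 ECKO against libraries labelled Ezh2 ECKO, 0.0716% for beta-catenin GOF against Hdac2 ECKO and 0.0636% for beta-catenin GOF against libraries labelled Ezh2 ECKO. Slc38a5 came nearest: beta-catenin GOF, at 224.3 to 365 CPM, lay wholly above Hdac2 ECKO, at 96.4 to 124 CPM (log2FC 1.42, SE 0.38, 95% interval 0.62 to 2.23, adjusted p = 0.168). Between those groups Slc5a6 was also without overlap higher in beta-catenin GOF (0.48, adjusted p = 0.265), and Slc6a6 (-0.55, adjusted p = 0.232) and Slc16a1 (-0.43, adjusted p = 0.386) lower, where 16.1% of all genes lay wholly higher and 15.9% wholly lower. In the other mutant pairs 0 carriers were without overlap, beside 13.2% and 16.7% of all genes, and the smallest adjusted p was 0.617 and 0.389. At an unadjusted p under 0.05 edgeR gave 0, 2 and 0 carriers in these 3 comparisons, beside 8.19%, 21.1% and 13.2% of all genes, DESeq2 called 0, 1 and 0, beside 0.783%, 9.6% and 1.15% of the genes it gave an adjusted p, and limma with sample quality weights 0, 2 and 1, beside 0.0875%, 26.5% and 11.6%.

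The genes most like each main carrier in pattern were taken by Pearson's r of log2 CPM over the 12 libraries, which share groups and depth, so no p is given. For Slc2a1 they were Abca4 (0.88), St3gal1 (0.86) and Bms1 (0.84). For Slc16a1 they were Sec61a2 (0.94), Marf1 (0.93) and Crkl (0.93), and for Slc7a1 they were Tnrc6c, Eif2ak4 and Fam193b (0.94 each). Slc7a5 was nearest to Extl3 (0.91), Cxcl12 (0.88) and Dusp16 (0.87), while Slc3a2 was nearest to Ddx47, Isyna1 and Acadvl (0.96 each). The heavy and light chain of LAT1 thus had no nearest gene in common among these.

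**Figure D5:**
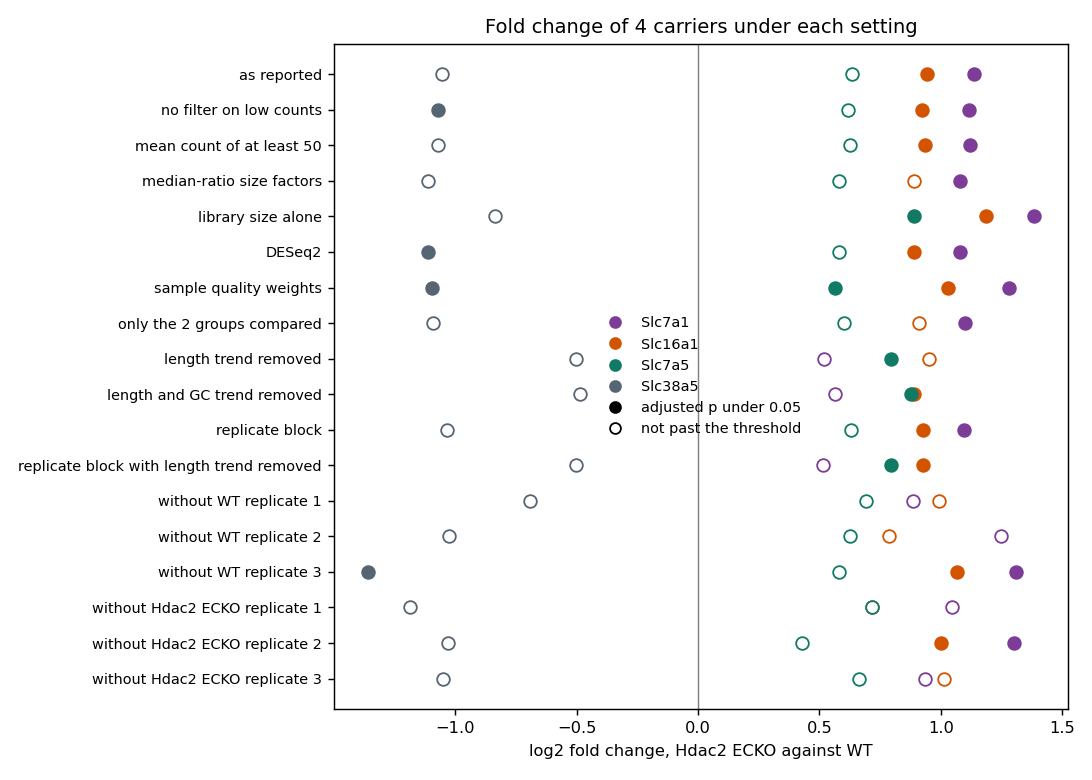
Log2 fold change in Hdac2 ECKO against WT of Slc7a1, Slc16a1, Slc7a5 and Slc38a5 as reported and under each of 17 alternatives, filled where the adjusted p was under 0.05. Slc16a1 stays between 0.72 and 1.19, and Slc7a1 drops to 0.52 with the length trend removed.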

How the data were processed

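The authors deposited 1 table of count values per gene and library, titled as normalized. Its values are whole numbers with differing totals, and even numbers made up 79.5% to 84.0% of counts of 10 to 50 but 59.4% to 67.1% of counts of 300 to 1000, a sign that 2 mates were counted per fragment, so they were treated as raw counts. The submitters' processing notes name FastQC, cutadapt, STAR, featureCounts, DESeq2 and the build mm10, with no versions or settings. Gene positions matched GENCODE M21 (GRCm38) for 98.4% of genes.

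Groups came from the sample titles. The 12577 genes whose mean count reached 10 were tested by edgeR 4.0.16 (R 4.3.3) with TMM scaling and 1 model over 12 libraries, with Benjamini-Hochberg adjustment within each contrast and 95% intervals from the fit. Alternatives used DESeq2 1.42.0, limma 3.58.1 with quality weights, other scalings and filters, removal of a smooth trend on gene length or on length and GC content, a replicate block and left-out libraries. The trend was fitted in each library to log2 CPM less the mean of the gene over all libraries. TPM used the gene lengths in the table. A floor of 3 counts corresponds to 0.0831 to 0.121 CPM, counting error only. Replicates of a group differed far beyond sampling noise (chi-square per gene of at least 66.3).

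The carriers, the related gene lists and the tests were chosen with earlier results of these data known. All carriers are named. Of the related lists, up to 4 genes past the threshold per comparison with WT are named. The 3 genes nearest in pattern are named for Slc2a1, Slc7a5, Slc3a2 and the carriers that passed. The scripts were tested on simulated data.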

Additional observations from a re-analysis of the deposited data

Results flagged for a closer look

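In 2 carriers, all 3 Hdac2 ECKO libraries lay on the other side of the WT mean from all 3 beta-catenin GOF libraries. Over all genes, 16.1% lay wholly higher in beta-catenin GOF than in Hdac2 ECKO and 15.9% wholly lower. The share of genes with the WT mean between these groups was not counted. The glutamine carrier Slc38a5 was at 96.4 to 124 CPM in Hdac2 ECKO and at 224.3 to 365 CPM in beta-catenin GOF, around a WT mean of 224 CPM from which the lowest beta-catenin GOF library barely differed, and the log2 fold change of beta-catenin GOF against Hdac2 ECKO was 1.42. The biotin and pantothenate carrier Slc5a6 was at 20.4 to 24.3 CPM in Hdac2 ECKO and 30.2 to 30.7 CPM in beta-catenin GOF, around a WT mean of 26.1 CPM, with a log2 fold change of 0.48. The direct test between the mutants did not pass for either gene (edgeR adjusted p = 0.168 and 0.265).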

How the results depend on the processing

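Of 510 values (10 carriers, 3 comparisons with WT, 17 alternatives), 461 kept direction and side of the threshold, 14 lost a call, 19 gained one and 16 changed sign. Against the 2 carriers called in Hdac2 ECKO, median-ratio scaling, a fit of only the 2 groups compared and removal of the length trend called 1 each (Slc7a1, Slc7a1 and Slc7a5), quality weights called 7, and leaving out a library gave 0 to 3. Over all genes these first 4 settings called 1049, 1466, 623 and 5374, beside 1157 as reported. Without WT replicate 3, where 3 carriers passed, 1872 genes were called. Without WT replicate 1 or 2 or Hdac2 ECKO replicate 3, 0 genes were called in the whole table. Against 0 carriers in libraries labelled Ezh2 ECKO, no filter and DESeq2 gave 1 (Slc7a1), quality weights 4, and leaving out a library 0 to 1. Over all genes no filter called 1367, DESeq2 1280 and quality weights 3743, beside 129 as reported. Without replicate 2 of those labelled Ezh2 ECKO, where 1 carrier passed, 2329 genes were called. For beta-catenin GOF against Hdac2 ECKO, no filter and DESeq2 gave 1 (Slc38a5) and quality weights 2. Over all genes these settings called 978, 621 and 3339, beside 9 as reported. For beta-catenin GOF against libraries labelled Ezh2 ECKO, quality weights gave 1, where 1462 of all genes were called, beside 8 as reported. In beta-catenin GOF against WT, 0 carriers passed under any alternative. With the length trend removed, related genes called went from 6 to 2 in Hdac2 ECKO and from 1 to 0 in libraries labelled Ezh2 ECKO. The cause of these shifts was not tested.

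Scaling by library size alone moved the all-gene median log2 fold change in Hdac2 ECKO from 0.10 to 0.34, and the calls from 480 higher and 677 lower to 1462 and 357. In the libraries labelled Ezh2 ECKO it moved them from 43 higher and 86 lower to 17 and 13. Changes of sign were limited to values that did not pass. Slc19a3 in Hdac2 ECKO was 0.18 by library size, 0.052 with quality weights, 0.30 with the length trend removed, 0.23 with length and GC trends removed, 0.25 with the replicate block and length, and -0.24 to 0.073 with a library left out. Slc5a6 in Hdac2 ECKO was 0.0022 by library size. Slc19a3 in libraries labelled Ezh2 ECKO ran from -0.11 to 0.35 with a library left out. In beta-catenin GOF with a library left out, Slc3a2 ran from -0.44 to 0.18, Slc38a3 from -0.46 to 0.13 and Slc6a6 from -0.22 to 0.13. Slc6a6 was 0.0068 by library size and Slc19a3 0.0079 with length and GC trends removed.

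Libraries with the same replicate number did not deviate together throughout (mean correlations from -0.05 to 0.14 between group pairs, and not every library correlated best with its own number), so the numbers were not taken as pairs. Between Hdac2 ECKO and libraries labelled Ezh2 ECKO every same-number correlation was positive (mean 0.14, beside -0.07 for other numbers). With the replicate block, 2 carriers passed in Hdac2 ECKO, 0 in libraries labelled Ezh2 ECKO and 0 with beta-catenin GOF. Over all genes the block moved the calls from 1157 to 1832 in Hdac2 ECKO and from 129 to 536 in libraries labelled Ezh2 ECKO. With 3 libraries a group, the 95% intervals of carriers that did not pass span fold changes that the tests could not tell from 1.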
